A study of Mus musculus with 11 samples.

Results

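The genes described here were 10 antioxidant and NRF2-related genes of cultured mouse bone mesenchymal stem cells (MSCs, stromal cells that can form bone, fat and cartilage). The set was given by name, with earlier results of these data known: Nfe2l2, which encodes NRF2, its target genes Hmox1, Nqo1, Gclc, Gclm and Txnrd1, the superoxide dismutases Sod1, Sod2 and Sod3, and the catalase gene Cat. All 10 were found among the 28222 genes of the count table, and all 10 passed the filter on low counts in each comparison.

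Polyadenylated RNA was sequenced in 11 libraries. Young mice were 3 to 5 months old and gave 6 libraries, old mice were 18 to 22 months old and gave 5, and the MSCs of both ages had been kept at 2% oxygen. The sample labels named 3 batches without saying what a batch was. There were 4 young libraries in batch A, 3 old ones in batch C, and 2 of each age in batch B, the only batch with both ages. According to the methods of the study, which describe an oxygen comparison, MSCs were sorted from hind limb bone cultures as cells that lacked CD45 and Ter-119 and carried Sca-1 and CD140a. Those methods name wild-type male C57BL/6N mice of the young age range, while the labels state neither strain nor sex, so both were not given for the old mice in the sources used here. Whether each library came from a different animal was not stated either, and p-values therefore measure only the spread between these libraries. Total counts per library ranged from 11969336 to 20315934. A count of 3 corresponded to between 0.148 and 0.251 CPM (counts scaled to a common library total), so every gene of the set lay far above the detection limit.

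The label of the cells was checked against marker genes. Ly6a, which encodes Sca-1, was between 270 and 778 CPM across the 11 libraries. Pdgfra, which encodes CD140a, lay between 164 and 227 CPM in young cells of batch A, 194 and 236 CPM in young cells of batch B, 109 and 128 CPM in old cells of batch B, and 268 and 289 CPM in batch C. Erythroid markers summed to at most 3.84 CPM and endothelial markers to at most 9.89 CPM. Macrophage and leukocyte transcripts were present in every library in spite of the sort. Their 12 markers summed to between 642 and 1399 CPM in young cells of batch A. In batch B the sums were 740 and 366 CPM for the young and 1071 and 740 CPM for the old libraries, and in batch C they lay between 129 and 152 CPM. Ptprc, which encodes CD45, was at 0 in no library and ranged from 3.47 to 22.2 CPM. The 3 libraries of batch C also stood apart in the whole transcriptome: the root mean square distance in log2 CPM was 0.36 to 0.53 within a group and 0.91 to 1.10 between batch C and any other group.

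NRF2 is a transcription factor that is bound by the adaptor KEAP1 and handed to a ubiquitin ligase for degradation. Oxidants and electrophiles modify cysteines of KEAP1, after which NRF2 accumulates, pairs with a small MAF protein and binds antioxidant response elements near its target genes. NRF2 activity is thus set largely by protein stability, and the amount of Nfe2l2 mRNA need not follow it. Among the targets, Hmox1 encodes haem oxygenase 1, which opens haem into biliverdin, iron and carbon monoxide. Nqo1 encodes a quinone reductase, Gclc and Gclm encode the catalytic and the modifier subunit of the enzyme that limits glutathione synthesis, and Txnrd1 encodes the cytosolic thioredoxin reductase. Superoxide dismutases turn superoxide into hydrogen peroxide in the cytosol (Sod1), the mitochondrial matrix (Sod2) and the extracellular matrix (Sod3), and catalase breaks hydrogen peroxide down in peroxisomes.

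Promoter windows were available from RefSeq for 7 of the 10 genes, in 9 windows that reached from 250 bases before to 50 bases after a transcription start (assembly GRCm38.p6). Both strands were searched for TGACNNNGC, the core of the antioxidant response element, whose first letters are shared with the AP-1 and cyclic AMP response elements. The motif occurred in 4 of the 9 windows, 1 each for Nfe2l2, Gclm, Txnrd1 and Sod1, and in 4071 of 32851 windows of all genes, or 12.4%. The windows of Nqo1, Sod2 and Cat and the 2 other windows of Txnrd1 had no match to these letters. The 250 bases before the start are given for the 4 matching windows. A relation between the motif and the fold changes of the genes was not tested. Capitals mark the motif, read 5′ to 3′ on the strand of the gene. They stand for chr2:75704664-75704913 (minus strand) for Nfe2l2, chr3:122245307-122245556 (plus strand) for Gclm, chr10:82858956-82859205 (plus strand, the second of 3 Txnrd1 starts) and chr16:90220512-90220761 (plus strand) for Sod1.
Nfe2l2: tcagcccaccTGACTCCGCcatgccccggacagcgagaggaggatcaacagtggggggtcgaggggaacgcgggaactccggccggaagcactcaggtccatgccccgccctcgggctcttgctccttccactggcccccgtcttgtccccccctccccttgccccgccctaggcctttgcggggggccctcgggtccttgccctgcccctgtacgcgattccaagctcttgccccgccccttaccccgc
Gclm: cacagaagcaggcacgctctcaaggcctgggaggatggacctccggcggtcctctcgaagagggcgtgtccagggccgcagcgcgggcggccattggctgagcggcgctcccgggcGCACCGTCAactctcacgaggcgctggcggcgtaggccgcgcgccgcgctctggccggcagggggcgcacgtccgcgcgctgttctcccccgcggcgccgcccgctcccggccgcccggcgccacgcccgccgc
Txnrd1: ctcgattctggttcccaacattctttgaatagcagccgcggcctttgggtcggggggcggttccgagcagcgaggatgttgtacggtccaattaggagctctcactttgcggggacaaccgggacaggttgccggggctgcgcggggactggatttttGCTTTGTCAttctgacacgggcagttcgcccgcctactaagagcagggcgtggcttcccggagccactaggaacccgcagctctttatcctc
Sod1: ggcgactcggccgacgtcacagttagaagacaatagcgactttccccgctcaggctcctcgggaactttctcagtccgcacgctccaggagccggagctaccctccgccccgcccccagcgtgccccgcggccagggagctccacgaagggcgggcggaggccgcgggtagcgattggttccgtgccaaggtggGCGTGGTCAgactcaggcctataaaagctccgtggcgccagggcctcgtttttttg
The first base of the match lay at -240 from the start in Nfe2l2, where the motif read TGACTCCGC on the strand of the gene. In the other 3 windows the motif lay on the opposite strand, beginning at -134 in Gclm, at -92 in Txnrd1 and at -56 in Sod1. A match of letters is a description and not a measured binding site.

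Levels of different genes were compared as CPM per kilobase of transcript, with libraries scaled by TMM factors, which correct for differences in RNA composition. In batch A young MSCs the cytosolic dismutase Sod1 was the most abundant transcript of the set, at 265 ± 21.9 CPM per kilobase (SD, n = 4). Hmox1 followed with 199 ± 12.3 and Sod3 with 196 ± 20.3 CPM per kilobase, which did not differ beyond their spread. Nfe2l2 at 37.2 ± 2.83 and Cat at 34.9 ± 3.27 were next and were also not separable, as were Txnrd1 at 25.7 ± 4.20 and Nqo1 at 22.5 ± 4.21. Gclm at 13.5 ± 1.14, Sod2 at 9.06 ± 0.50 and Gclc at 4.86 ± 0.30 CPM per kilobase were the lowest. In batch C old MSCs the order at the top was Hmox1 with 105 ± 5.78, Sod1 with 88.3 ± 3.90 and Sod3 with 67.3 ± 2.24 CPM per kilobase (SD, n = 3), while Nfe2l2 was at 36.8 ± 0.62 and Cat at 33.4 ± 0.96.

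**Figure D1:**
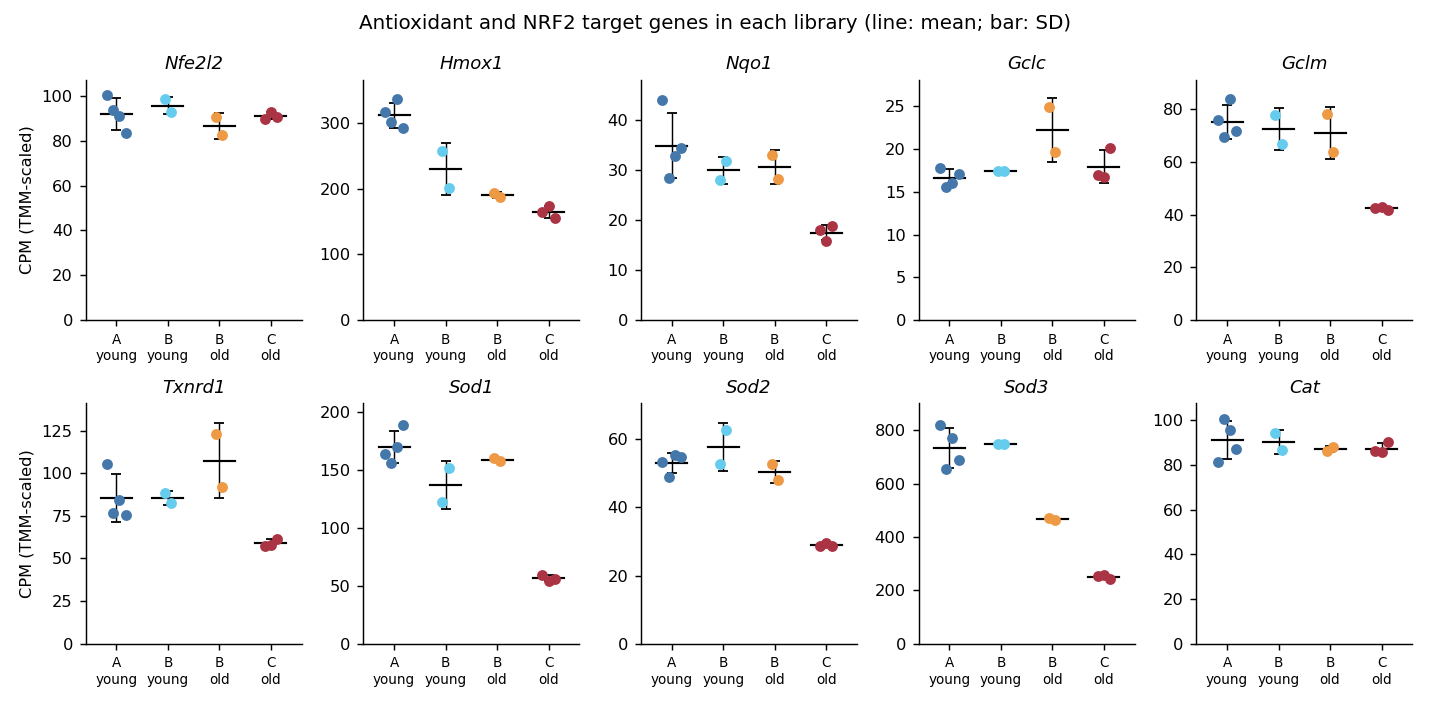
CPM (TMM-scaled, linear axis from 0) of the 10 genes in each of the 11 libraries, grouped by batch and age; points are libraries, lines are means and bars are SD. Sod3 is lower in both old libraries of batch B and lowest in batch C, whereas Nfe2l2 and Cat stay within a narrow band in all 4 groups with this scaling.

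Values for a single gene are given in the following as TMM-scaled CPM, in the order of the replicate numbers. The plot of the 10 genes by library shows them together. Nfe2l2 (ENSMUSG00000015839, GRCm38 chr2:75675513-75704641, minus strand) had 100.3, 93.7, 91.0 and 83.4 CPM in young cells of batch A, 98.6 and 93.0 CPM in young cells of batch B, 90.8 and 82.7 CPM in old cells of batch B, and 89.9, 92.9 and 90.8 CPM in old cells of batch C. With TMM scaling the transcript of NRF2 itself was thus nearly level. The groups overlapped except that all 5 old libraries, of batches B and C, lay below both young libraries of batch B. Cat (ENSMUSG00000027187, chr2:103453849-103485160, minus strand) was as level. It had 81.3, 100.5, 95.7 and 87.2 CPM in young cells of batch A, 94.2 and 86.5 CPM in young cells of batch B, 86.1 and 87.9 CPM in old cells of batch B, and 86.0, 85.6 and 90.2 CPM in old cells of batch C. Every library of batches B and C lay within the range of batch A. The level values of Nfe2l2 and Cat depended on the scaling. By total counts both were called higher in batch C than in batch B old MSCs. Their log2 fold changes were then 0.26 (edgeR adjusted p = 0.00422) and 0.19 (edgeR adjusted p = 0.0193), where the median of all genes was 0.22.

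Hmox1 (ENSMUSG00000005413, chr8:75093621-75100589, plus strand) had 317, 302, 336 and 292 CPM in young cells of batch A, 258 and 202 CPM in young cells of batch B, 193 and 187 CPM in old cells of batch B, and 165, 173 and 155 CPM in old cells of batch C. The 4 groups followed each other without overlap, from batch A young to batch C old. Nqo1 (ENSMUSG00000003849, chr8:107388225-107403206, minus strand) had 44.0, 28.5, 32.9 and 34.4 CPM in young cells of batch A, 28.0 and 31.9 CPM in young cells of batch B, 33.1 and 28.3 CPM in old cells of batch B, and 18.0, 15.8 and 18.8 CPM in old cells of batch C. The quinone reductase transcript was low in batch C alone, and the other 3 groups overlapped. Txnrd1 (ENSMUSG00000020250, chr10:82833951-82897712, plus strand) had 105.6, 76.8, 84.0 and 75.3 CPM in young cells of batch A, 88.4 and 82.8 CPM in young cells of batch B, 122.9 and 91.7 CPM in old cells of batch B, and 57.4, 58.2 and 61.7 CPM in old cells of batch C. Its old libraries therefore included both the highest and the lowest values, above batch B young in batch B and below all others in batch C.

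Of the glutathione synthesis enzyme, the catalytic subunit Gclc (ENSMUSG00000032350, chr9:77754535-77794485, plus strand) had 17.8, 15.6, 16.0 and 17.1 CPM in young cells of batch A, 17.5 and 17.5 CPM in young cells of batch B, 24.9 and 19.6 CPM in old cells of batch B, and 17.0, 16.7 and 20.2 CPM in old cells of batch C. Both old libraries of batch B and 1 of 3 old libraries of batch C exceeded all young libraries. The modifier subunit Gclm (ENSMUSG00000028124, chr3:122245557-122270732, plus strand) had 75.8, 69.3, 84.0 and 72.0 CPM in young cells of batch A, 78.0 and 66.8 CPM in young cells of batch B, 78.1 and 63.9 CPM in old cells of batch B, and 42.6, 42.7 and 41.9 CPM in old cells of batch C. Only batch C stood apart for Gclm. Exons of Gclm overlap those of Gm17494 on the opposite strand and of the pseudogene Gm6061 on the same strand, and whether strand was used in counting was not stated, so reads of these genes may have been shared.

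Sod1 (ENSMUSG00000022982, chr16:90220754-90226329, plus strand) had 163.7, 156.4, 169.9 and 189.1 CPM in young cells of batch A, 122.7 and 152.0 CPM in young cells of batch B, 160.2 and 158.0 CPM in old cells of batch B, and 59.4, 54.6 and 55.8 CPM in old cells of batch C. Sod2 (ENSMUSG00000006818, chr17:13006846-13040063, plus strand) had 53.2, 48.9, 55.3 and 54.9 CPM in young cells of batch A, 52.8 and 62.7 CPM in young cells of batch B, 52.8 and 48.1 CPM in old cells of batch B, and 28.7, 29.6 and 28.7 CPM in old cells of batch C. For the cytosolic and the mitochondrial dismutase, batch C thus lay below every other library, and the old libraries of batch B lay near the young ones. Sod3 (ENSMUSG00000072941, chr5:52363791-52371418, plus strand) had 820.2, 653.0, 770.6 and 690.0 CPM in young cells of batch A, 747.8 and 748.6 CPM in young cells of batch B, 471.3 and 463.1 CPM in old cells of batch B, and 255.1, 257.7 and 242.1 CPM in old cells of batch C. The extracellular dismutase formed 3 levels that did not overlap, with all 6 young libraries highest, batch B old below them and batch C old lowest.

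The first comparison asked whether these genes differed between old and young MSCs within a batch. Counts of all genes were fitted with edgeR's quasi-likelihood test with age and batch as terms, in which batch B alone sets the age difference and all 11 libraries set the spread. A gene was called when its p-value, adjusted by the Benjamini-Hochberg method over 16132 genes, was below 0.05. Of all genes, 2.23% were called and 1.54% were called lower in old MSCs. Of the 10 genes, 1 was called: Sod3 fell in old MSCs from 748 ± 0.605 (SD, n = 2) to 467 ± 5.80 CPM (SD, n = 2), a log2 fold change of -0.68 with an SE of 0.12 (edgeR adjusted p = 0.00832; 95% confidence interval -0.94 to -0.42).

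The fall of Sod3 had the same size when batch B was fitted alone, but with 4 libraries it missed the threshold (log2 fold change -0.68, edgeR adjusted p = 0.121; 0.831% of all genes were called). Without batch B old replicate 1 it was -0.68 (edgeR adjusted p = 0.0824) and without batch B old replicate 2 it was -0.67 (edgeR adjusted p = 0.059), and in these fits the remaining old library was assumed to vary like the other groups. It was called in the 9 other fits that left out a library. With batch C left out, a choice made after seeing the data, the change was -0.69 (edgeR adjusted p = 0.0374; 1.14% of all genes were called). Macrophage and leukocyte markers were not lower in batch B old than in batch B young MSCs: all 12 had positive fold changes with a median log2 value of 0.64, none was called by edgeR, 6 had an unadjusted p below 0.05 and 1 was called by DESeq2, and their sums were 1071 and 740 against 740 and 366 CPM. Of the 9 mesenchymal stem cell markers, 2 were called lower in old MSCs in the same fit and 7 had negative fold changes, with a median log2 value of -0.23, and their sums were 3090 and 3028 against 3483 and 3292 CPM. The called markers were Pdgfra (-0.86, edgeR adjusted p = 0.0059) and Nt5e, which encodes CD73 (-1.34, edgeR adjusted p = 0.00932), with Nt5e between 8.42 and 9.82 CPM in old and between 16.0 and 30.5 CPM in young libraries of batch B. The part of the mesenchymal marker differences in the fall of Sod3 was not tested. In bulk RNA, fewer cells of a type and less RNA per cell cannot be told apart.

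The other 9 genes were not called in old against young MSCs with batch in the model, and the log2 fold changes of all 10 had a median of -0.04 against 0.00 over all genes tested. Hmox1 had a log2 fold change of -0.27 (95% confidence interval -0.54 to -0.01; edgeR adjusted p = 0.293). Gclc had 0.35 (0.03 to 0.66; edgeR adjusted p = 0.259) and Txnrd1 0.33 (-0.01 to 0.66; edgeR adjusted p = 0.321). The interval of each of these 3 genes reached past 0.5 in size, so larger changes were not resolved by the 4 libraries of batch B. The log2 fold change of Hmox1 was called only without batch B young replicate 2, the library with the lower Hmox1 value, where it was -0.44 (edgeR adjusted p = 0.0209).

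Sod1 had a log2 fold change of 0.21 (95% confidence interval -0.04 to 0.47; edgeR adjusted p = 0.411) and Sod2 of -0.19 (-0.43 to 0.05; edgeR adjusted p = 0.418). For Nfe2l2 the value was -0.14 (-0.37 to 0.09; edgeR adjusted p = 0.546) and for Cat -0.05 (-0.29 to 0.19; edgeR adjusted p = 0.856). Gclm was at -0.03 (-0.29 to 0.24; edgeR adjusted p = 0.933) and Nqo1 at 0.04 (-0.32 to 0.40; edgeR adjusted p = 0.935). The signs of Gclm, Cat and Nqo1 turned under other settings, so no direction is given for them. Within batch B the old and young libraries did not overlap for 7 of the 10 genes, against 39.7% of all genes. Of these 7, Nfe2l2, Hmox1, Sod2 and Sod3 were lower (20.6% of all genes) and Gclc, Txnrd1 and Sod1 higher (19.2%) in old libraries.

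**Figure D2:**
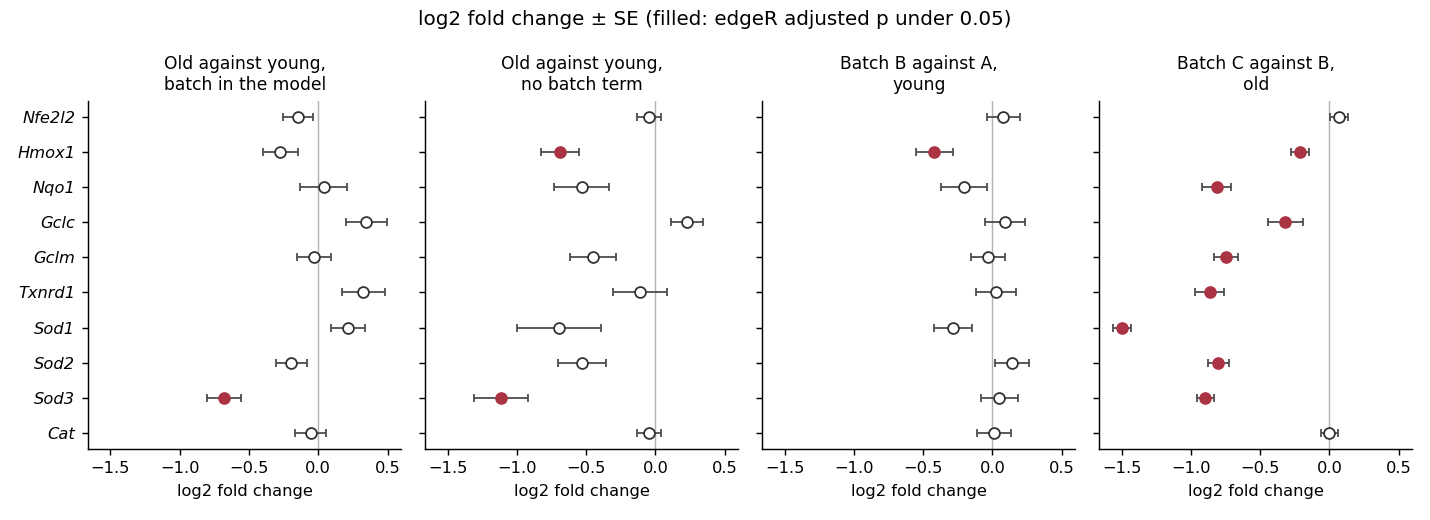
Log2 fold change ± SE of the 10 genes in 4 comparisons (horizontal axis, shared by the panels); filled points have an edgeR adjusted p below 0.05. Sod3 alone is filled in the age comparison with batch in the model (-0.68), and 8 genes are filled on the negative side between batches C and B of old MSCs.

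When the same 11 libraries were compared by age with no batch term, 2 of the 10 genes were called, both lower in old MSCs, while 18.0% of 14689 genes were called and 8.65% called lower. Mean Hmox1 levels were 284 ± 48.3 CPM (SD, n = 6) for young and 175 ± 15.6 CPM (SD, n = 5) for old MSCs, a log2 fold change of -0.69 with an SE of 0.14 (edgeR adjusted p = 0.011). Sod3 averaged 738 ± 59.3 and 338 ± 118 CPM, a log2 fold change of -1.12 with an SE of 0.20 (edgeR adjusted p = 0.00982). These were also the 2 genes of the set whose 6 young libraries all lay above the 5 old ones, which held for 4.58% of all genes tested. Batch A contributed only young and batch C only old libraries, so that age and batch are mixed in these values, and within batch B the change was -0.68 for Sod3 and -0.27, not called, for Hmox1. The fold changes of Sod2 (-0.53, edgeR adjusted p = 0.0507), Gclm (-0.45, edgeR adjusted p = 0.0741), Nqo1 (-0.53, edgeR adjusted p = 0.0763) and Sod1 (-0.69, edgeR adjusted p = 0.124) missed the threshold, although Sod2 was called by DESeq2 (adjusted p = 0.03) and limma-trend (0.0389). With the correction for transcript length and GC content all 4 were called lower, Nqo1 (-0.65, edgeR adjusted p = 0.0223), Sod2 (-0.74, 0.0418), Sod1 (-0.53, 0.0475) and Gclm (-0.67, 0.048). In that fit 18.0% of all genes were called. With scaling by total counts, Gclc at 0.45 was called higher (edgeR adjusted p = 0.0167), where the median of all genes was 0.22. Leaving out batch B old replicate 1 raised the number called from 2 to 6, adding Nqo1, Gclm, Sod1 and Sod2, and leaving out batch B old replicate 2 raised it to 5, adding Nqo1, Sod1 and Sod2. Shares of all genes called without single libraries are not given here, so these rises are not shown to be particular to the set.

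Batch C old against batch A young MSCs, in which age and batch cannot be told apart, gave 7 called genes of the 10, all lower. Of all 15021 genes tested, 9585 or 63.8% were called, and 4800 of these were higher in batch C. The log2 fold changes were -1.53 for Sod1, -1.48 for Sod3, -0.94 for Nqo1, -0.86 for Hmox1, -0.81 for Sod2, -0.77 for Gclm and -0.48 for Txnrd1. Gclc at 0.16, Nfe2l2 at 0.04 and Cat at 0.00 were not called by edgeR. These values were computed with TMM scaling, and scaling by total counts was not run for this pair alone. Over the 11 libraries the TMM factors were 0.889 to 0.926 in batch A and 1.152 to 1.161 in batch C, so the values depend on the scaling.

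To see how far batches differed at constant age, the young libraries of batches B and A were compared. Of all genes 18.1% were called, and 8.71% were called lower in batch B. Hmox1 alone of the 10 genes was called, with 230 ± 39.6 CPM in batch B (SD, n = 2) and 312 ± 19.3 CPM in batch A (SD, n = 4), a log2 fold change of -0.42 with an SE of 0.14 (edgeR adjusted p = 0.0478). Total-count scaling (adjusted p = 0.0761), a correction for transcript length and GC content (0.0687), and leaving out any one batch A library or batch B young replicate 2 (between 0.0712 and 0.289) each ended this call. All 12 macrophage and leukocyte markers had negative fold changes in batch B young MSCs, with a median log2 value of -0.98, and 5 of them were called. Sod1 was lower in both batch B young libraries than in all 4 of batch A, as were 20.8% of all genes, at a log2 fold change of -0.28 (edgeR adjusted p = 0.164), and was called with the length and GC correction at -0.37 (adjusted p = 0.0206). Sod3 had a log2 fold change of 0.05 (95% confidence interval -0.24 to 0.34; edgeR adjusted p = 0.824).

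Between the old libraries of batches C and B the set fell broadly. Of the 10 genes, 8 were called lower in batch C and none higher, while of 15651 genes tested 64.7% were called, 32.6% lower and 32.1% higher. The median log2 fold change of the 10 was -0.78, against 0.02 over all genes tested. By this fit the cytosolic dismutase had the most negative value of the 10: Sod1 was at 56.6 ± 2.50 CPM in batch C (SD, n = 3) and 159 ± 1.53 CPM in batch B (SD, n = 2), a log2 fold change of -1.50 with an SE of 0.06 (edgeR adjusted p = 4.62e-09). Sod3 was at 252 ± 8.36 and 467 ± 5.80 CPM, a log2 fold change of -0.90 (edgeR adjusted p = 1.87e-07), and Sod2 at 29.0 ± 0.520 and 50.4 ± 3.34 CPM, a log2 fold change of -0.80 (edgeR adjusted p = 2.11e-06).

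Among the NRF2 targets, Txnrd1 fell by 0.87, Nqo1 by 0.81 and Gclm by 0.75 on the log2 scale, with edgeR adjusted p between 1.05e-05 and 3.22e-05. For these 3 and the 3 dismutases, and for Hmox1, no batch C library reached the lowest batch B old library, as for 37.4% of all genes. Gclc had a log2 fold change of -0.32 (edgeR adjusted p = 0.0415) and overlapped between the batches. Its call was lost without batch B old replicate 1 (-0.14, adjusted p = 0.361), without batch C old replicate 1 (-0.27, adjusted p = 0.146) or 2 (-0.26, adjusted p = 0.138), and with DESeq2 (adjusted p = 0.0773), limma-trend (0.0527) or a minimum count of 10 (0.0516). Hmox1 had -0.21 (edgeR adjusted p = 0.0147), which became -0.17 (adjusted p = 0.0812) without batch C old replicate 3. Nfe2l2 had a log2 fold change of 0.07 (95% confidence interval -0.08 to 0.21; edgeR adjusted p = 0.397) and Cat of 0.00 (-0.14 to 0.14; edgeR adjusted p = 0.993). For these 2 genes a fall as large as that of Sod1, Sod2, Sod3, Txnrd1, Nqo1 or Gclm lay outside the interval. The intervals of Hmox1 (-0.36 to -0.07) and Gclc (-0.60 to -0.04) overlapped those of Nfe2l2 and Cat.

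The scale of these differences depended on how libraries were made comparable. Scaling by total counts in place of TMM shifted all genes, whose median went from 0.02 to 0.22 (log2 scale). Called genes that were higher in batch C were then 6472 of 10297 in place of 5029 of 10133. Under this scaling the 6 genes Sod1, Sod2, Sod3, Nqo1, Gclm and Txnrd1 were still called lower, Hmox1 and Gclc were not called, and Nfe2l2 at 0.26 (edgeR adjusted p = 0.00422) and Cat at 0.19 (edgeR adjusted p = 0.0193) were called higher, both close to the shift of all genes. Sod1 has the shortest transcript of the set, with 641 bases. A correction for transcript length and GC content reduced its log2 fold change from -1.50 to -0.91 but kept the call. Sod2 (-1.13), Gclm (-1.05), Sod3 (-1.03) and Txnrd1 (-0.94) were then more negative than Sod1, and 7 of the 10 genes were called lower, with Hmox1 no longer called (-0.08, adjusted p = 0.259).

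All 12 macrophage and leukocyte markers were lower in batch C than in batch B old MSCs, with a median log2 fold change of -2.63. Hmox1 is a gene that macrophages express strongly. In batch B young MSCs the library with a marker sum of 740 CPM had 258 CPM of Hmox1 and the library with 366 CPM had 202, whereas Sod3 was 747.8 and 748.6 CPM in the same libraries. In batch B old MSCs, Hmox1 was at 193 CPM with a marker sum of 1071 CPM and at 187 CPM with a sum of 740 CPM. In batch A, sums of 910 and 1100 CPM went with 302 and 292 CPM of Hmox1. The batch A library with the lowest marker sum, 642 CPM, had an Hmox1 value of 317 CPM, within the range of the others. The library with the highest sum, 1399 CPM, had the highest Hmox1 value of all, 336 CPM. Sod3 in batch A was 820.2 CPM at this lowest and 770.6 CPM at the highest marker sum, as the plot of both genes against the marker sums shows. The part of macrophage RNA in the batch differences was not tested.

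**Figure D3:**
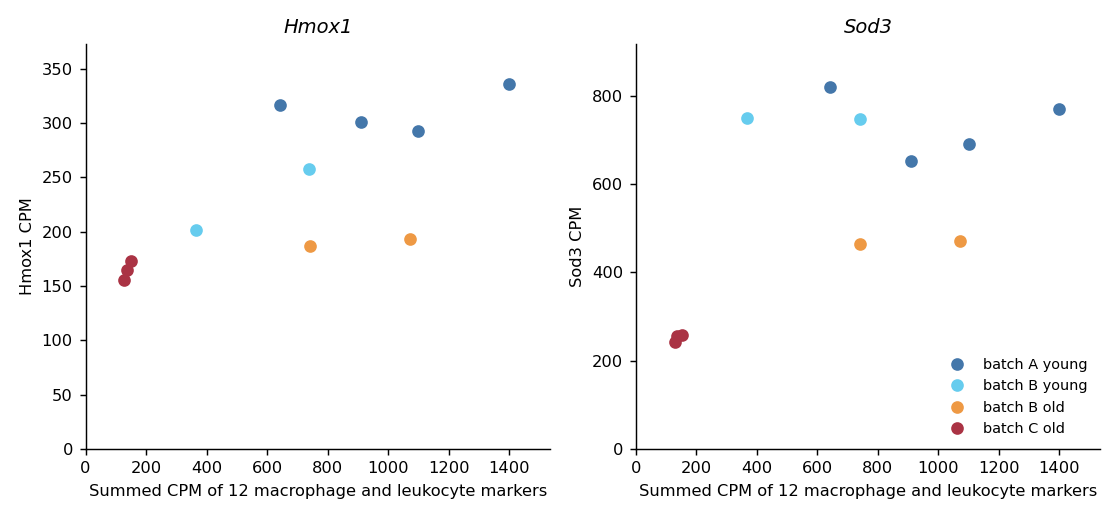
TMM-scaled CPM of Hmox1 (left) and Sod3 (right) against the summed CPM of 12 macrophage and leukocyte markers in the 11 libraries, coloured by batch and age. The 3 batch C libraries have marker sums between 129 and 152 CPM and the lowest values of both genes, and batch B old libraries have lower Sod3 than batch B young libraries at equal or higher marker sums.

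Since the age difference within batch B and the difference between batch C old and batch A young MSCs gave unlike values, the difference between them was itself tested in 1 model with 4 group means. Of all genes 35.7% were called, 19.8% in the positive direction, which stands for a more negative change from batch A young to batch C old than within batch B. Of the 10 genes, 7 were called, all in that direction. Sod1 differed most, by 1.80 with an SE of 0.16 (log2 scale; edgeR adjusted p = 1.17e-06), with 0.21, not called, within batch B and -1.53 from batch A young to batch C old. Nqo1 followed with 1.04, Sod3 and Txnrd1 each with 0.86, Gclm with 0.80, Sod2 with 0.68 and Hmox1 with 0.65. Gclc (0.25, edgeR adjusted p = 0.329), Nfe2l2 (-0.13, edgeR adjusted p = 0.49) and Cat (0.01, edgeR adjusted p = 0.972) were not called. With scaling by total counts, which moved the median of all genes from 0.03 to -0.26, 5 of the 10 were called in the positive direction, Hmox1 and Sod2 were not called, and Nfe2l2 was called in the opposite direction (-0.42, edgeR adjusted p = 0.0162). With TMM scaling both changes of Sod3 were negative, -0.68 and -1.48. Those of Txnrd1 had opposite signs, 0.33 without a call and -0.48. The comparisons share libraries and are not independent of each other. The tested contrast equals the difference of batch A from B in young plus that of batch B from C in old MSCs. It therefore cannot tell an age difference that varies between batches from these batch differences.

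The catalytic and the modifier subunit of glutamate-cysteine ligase did not move in step. The ratio of Gclc to Gclm per kilobase, which does not depend on how libraries are scaled, was examined after these values had been seen. It was 0.384, 0.368, 0.312 and 0.389 for young cells of batch A, 0.366 and 0.428 for young cells of batch B, 0.521 and 0.502 for old cells of batch B, and 0.650, 0.638 and 0.787 for old cells of batch C. All 5 old libraries lay above all 6 young libraries, 0.619 ± 0.115 (SD, n = 5) against 0.374 ± 0.0380 (SD, n = 6), but age and batch are mixed in these means. Within batch B the means were 0.511 ± 0.014 for old and 0.397 ± 0.044 for young cells. In old MSCs the ratio in batch C was above that in batch B, 0.691 ± 0.083 against 0.511 ± 0.014, and in young MSCs batches B and A overlapped. These values are a description, with no test, since the ratio was chosen after the genes had been seen to differ.

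**Figure D4:**
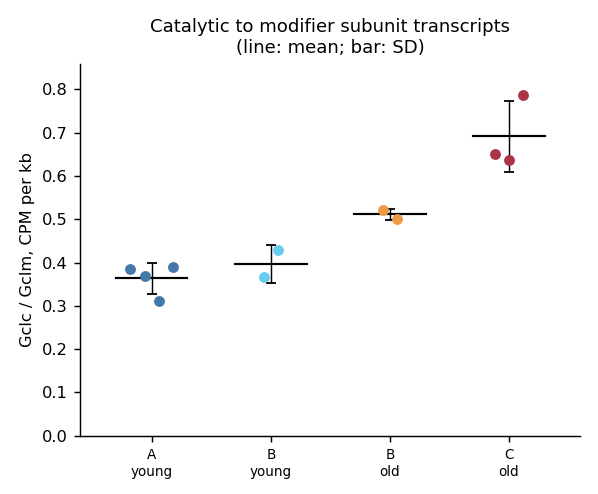
Ratio of Gclc to Gclm transcripts, each as CPM per kilobase, in the 11 libraries by batch and age (linear axis from 0; points are libraries, lines means, bars SD). The 6 young libraries lie between 0.312 and 0.428 and the 5 old libraries between 0.502 and 0.787.

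Further genes of the pathway were followed in 7 lists with 86 genes that held no member of the set. With batch in the model, 1 of the 86 was called, higher in old MSCs, against 0.694% of all genes called higher, and their median was 0.04 against 0.00 over all genes (log2 scale). An unadjusted p below 0.05 was reached by 13 of the 86 genes, against 16.1% of all genes, and DESeq2 called 5. The called gene was Gpx3, a secreted glutathione peroxidase, which ranged from 317 to 321 CPM in young and from 529 to 634 CPM in old libraries of batch B (log2 fold change 0.87 ± 0.17, SE; edgeR adjusted p = 0.0127). The extracellular dismutase and the extracellular peroxidase therefore changed in opposite directions within batch B. In batch C old MSCs Gpx3 was lower, at 223 ± 27.7 CPM (SD, n = 3). The call of Gpx3 was lost without batch B young replicate 1 (0.86, adjusted p = 0.0657) or batch B old replicate 2 (0.73, adjusted p = 0.0971).

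The 3 genes with the smallest p in each list are given with their log2 fold change, followed by the edgeR adjusted p. Of the NRF2 regulators, 0 of 10 were called (3 at an unadjusted p below 0.05, 0 by DESeq2). First were the small MAF gene Mafk (0.40, edgeR adjusted p = 0.157), the related factor gene Nfe2l1 (-0.34, 0.164) and Keap1 (-0.25, 0.241). Among 19 glutathione enzymes the transferases Gstm1 (-0.59, edgeR adjusted p = 0.0529) and Gsto1 (0.32, 0.231) followed Gpx3, and Gstm1 was called by DESeq2 (adjusted p = 0.0177). In the thioredoxin and peroxiredoxin list of 16 genes (0 called by edgeR or DESeq2, 2 at an unadjusted p below 0.05), Txn1 had 0.39 (edgeR adjusted p = 0.242), the methionine sulfoxide reductase gene Msrb1 0.35 (0.142) and the peroxiredoxin gene Prdx1 0.27 (0.359). For NADPH supply (0 of 10 called by edgeR, 1 at an unadjusted p below 0.05), Idh2 had -0.39 (edgeR adjusted p = 0.0723), G6pdx -0.21 (0.367) and Nnt -0.19 (0.411), and Idh2 was called by DESeq2 (adjusted p = 0.0385).

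For haem breakdown and iron storage (0 of 8 called by edgeR or DESeq2, 1 at an unadjusted p below 0.05), the biliverdin reductase genes Blvra and Blvrb had 0.49 (edgeR adjusted p = 0.13) and 0.28 (0.486), and the haem-binding protein gene Hebp1 0.34 (0.378). Detoxification genes (0 of 13 called by edgeR, 2 at an unadjusted p below 0.05, and Ptgr1 by DESeq2 with an adjusted p of 0.0306) were led by the reductase gene Ptgr1 with 0.51 (edgeR adjusted p = 0.0582), followed by Esd with 0.33 (0.288) and Osgin1 with -0.47 (0.342). Of the superoxide sources and copper chaperones (0 of 10 called by edgeR, 1 at an unadjusted p below 0.05, and 1 by DESeq2), the phagocyte oxidase subunit gene Cyba had 0.30 (edgeR adjusted p = 0.434), and the oxidase gene Nox1 stayed below 0.6 CPM in every library. Markers of phagocytes also had positive fold changes in batch B old MSCs.

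Between batches C and B of old MSCs, 55 of the 86 genes were lower and 12 higher in batch C by edgeR, with a median log2 fold change of -0.42, against 32.6% of all genes lower, 32.1% higher and a median of 0.02. With scaling by total counts, 42 were lower and 21 higher, and with the length and GC correction 54 and 12. Lower genes were 13 of 19 glutathione enzymes, 11 of 16 thioredoxin and peroxiredoxin genes, 7 of 8 haem and iron genes, 7 of 13 detoxification genes, 7 of 10 superoxide sources and copper chaperones, 6 of 10 NADPH supply genes and 4 of 10 NRF2 regulators, the last of which is near the share of all genes. The count of NRF2 regulators depended on the processing. With the length and GC correction 6 were lower and 1 higher, and with scaling by total counts 2 were lower and 4 higher. Txn1, which encodes the substrate of the reductase Txnrd1, fell by 1.61 on the log2 scale (edgeR adjusted p = 1.41e-08) and Prdx1 by 1.28 (2.36e-08). Gpx3 fell by 1.39 (edgeR adjusted p = 2.5e-07) and Cyba by 1.83 (1.26e-09). Gstm1 rose by 0.62 (edgeR adjusted p = 2.31e-05) and Mafk by 0.27 (0.0254), while Keap1 had -0.09 (0.297).

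**Figure D5:**
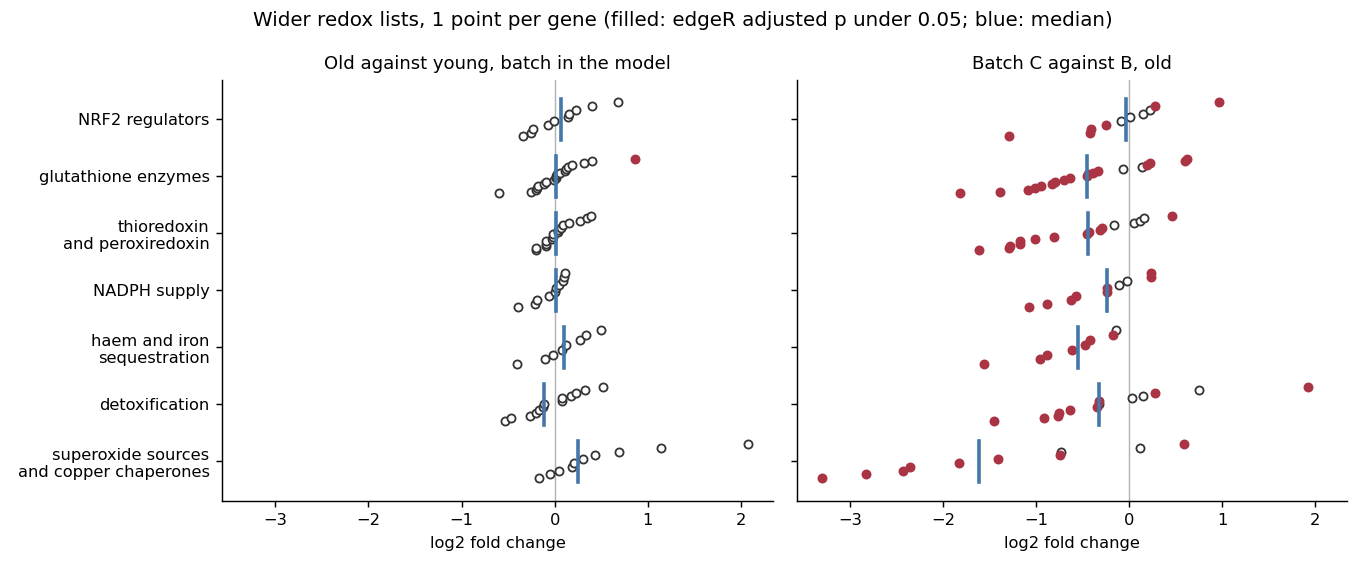
Log2 fold changes of the 86 genes of 7 redox lists, 1 point per gene, for old against young MSCs with batch in the model (left) and for batch C against B in old MSCs (right); filled points have an edgeR adjusted p below 0.05 and blue bars are medians. On the left 1 gene is filled, and on the right 55 genes are filled on the negative and 12 on the positive side.

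Genes whose log2 CPM followed Nfe2l2, Hmox1 and Nqo1 most closely over the 11 libraries were found by Pearson's r, as a description, since the libraries share batch, depth and cell makeup. For Nfe2l2 these were the splicing factor gene Prpf4 (r = 0.93) and Sbno2 (0.89). For Hmox1 they were the collagen gene Col1a1, Chpf and Ergic1, each at 0.99, and for Nqo1 the purine synthesis gene Atic (0.99), Ccdc124 (0.98) and Tagln2 (0.97). The means of Col1a1 were 55970 CPM in young cells of batch A, 33280 and 22840 CPM in young and old cells of batch B, and 18960 CPM in batch C, in the same order as Hmox1. Within the set, r was highest between Sod1 and Sod2 at 0.95 and lowest between Hmox1 and Gclc at -0.46, and Nfe2l2 had an r of 0.13 with Nqo1 and 0.15 with Gclm.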

How the data were processed

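The authors mapped reads to mouse assembly GRCm38 with STAR and counted them per Ensembl gene with featureCounts, both within zUMIs, as stated for the oxygen comparison of the study and taken to hold here. The deposited table held raw counts, as whole numbers per gene and library, and no column of other samples. Whether molecular identifiers were collapsed or strand was used was not given in the sources used here. Of 28222 identifiers, 28143 were matched to a GENCODE symbol, transcript length and GC content. No library was left out, and replicate libraries differed by more than sampling noise.

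The members and gene lists were chosen with earlier results of these data known. Counts were tested with edgeR 4.0.16 in R 4.3.3 (quasi-likelihood test, two-sided, TMM factors between 0.889 and 1.161, filterByExpr with a minimum count of 5, Benjamini-Hochberg adjustment over all genes tested, threshold 0.05). The study used limma-trend. CPM were computed with TMM-scaled library totals. On the log2 scale a prior count of 2 was added. Lengths are those of the principal transcript. Standard errors are fold changes divided by the root of F, and 95% intervals use the t distribution. The test was checked on simulated counts.

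Alternatives were scaling by total counts, no filter on low counts, a minimum count of 10, DESeq2 1.42.0, limma-trend (limma 3.58.1), an offset for transcript length and GC content (splines per library), batch B alone, batches A and B alone, batch A young with batch C old alone, a block for the replicate number, and leaving out each library in turn. Batches A and B alone was chosen after seeing the data, as was the Gclc to Gclm ratio. Named genes of the 7 lists were the 3 of each with the smallest unadjusted p in the age comparison with batch, and the 3 genes most like Nfe2l2, Hmox1 and Nqo1 had the highest r. Of the genes this rule names, 2 are not reported here.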

Additional observations from a re-analysis of the deposited data

Results flagged for a closer look

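For 7 of the 10 genes the age difference within batch B differed from the difference between batch C old and batch A young MSCs by edgeR's test of the difference itself, against 35.7% of all genes. The difference of the log2 fold changes was 1.80 for Sod1, 1.04 for Nqo1, 0.86 (0.8641) for Sod3, 0.86 (0.8596) for Txnrd1, 0.80 for Gclm, 0.68 for Sod2 and 0.65 for Hmox1, in each gene with the more negative value for batch C old against batch A young MSCs. With scaling by total counts, which moved the median of all genes from 0.03 to -0.26, Hmox1 (0.36, adjusted p = 0.0595) and Sod2 (0.39, adjusted p = 0.052) were not called, and Nfe2l2 was called in the opposite direction (-0.42, adjusted p = 0.0162). Age and batch cannot be told apart in the second difference. The tested contrast also equals the sum of the batch differences at constant age, with signs turned. It cannot tell an age difference that varies between batches from them. Among the 4 libraries of batch A, none stood apart from the rest in the 31 genes tested for this.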

How the results depend on the processing

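All 10 genes lay far above the level of 3 counts, and the age comparison within a batch rests on the 4 libraries of batch B. With batch in the model the number of the 10 genes called was 1, fell to 0 with batch B alone, and ranged from 0 to 2 when single libraries were left out. Without a batch term it was 2, rose to 6 with the length and GC correction and to 7 with batch A young and batch C old alone, and ranged from 2 to 6 without single libraries. For batch B against A in young MSCs it was 1, fell to 0 with scaling by total counts, and ranged from 0 to 1 without single libraries. For batch C against B in old MSCs it was 8 and for the difference of the age differences 7, counting both directions. These numbers stayed within 1.5 times under every alternative run, but the genes and directions did not all stay the same. With scaling by total counts, batch C against B had 6 genes called lower and 2 higher, in place of 8 and 0. The difference of the age differences then had 5 called in the positive and 1 in the negative direction, in place of 7 and 0. Of all genes, 2.23% were called with batch in the model and 0.831% with batch B alone. Without a batch term the share was 18.0%, also with the length and GC correction. With batch A young and batch C old alone it was 63.8%, near 7 of 10. Batch B against A had 18.1%, or 20.4% with scaling by total counts. Batch C against B had 64.7% and the difference of the age differences 35.7%.

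Signs turned only in genes that were not called, except for Cat in batch C against B, which was called at 0.19 with scaling by total counts. The log2 fold change of Nqo1 with batch in the model became -0.090 with the length and GC correction, and -0.093 with the replicate block and that correction, and ranged from -0.070 to 0.15 without single libraries. With scaling by total counts it became 0.036 for Gclm and 0.010 for Cat with batch in the model, 0.19 for Nfe2l2, 0.094 for Txnrd1 and 0.19 for Cat without it, and 0.043 for Gclm in batch B against A. Nfe2l2 became 0.044 with batch A young and batch C old alone. With the length and GC correction, Nfe2l2 became -0.026 and Cat -0.036 in batch B against A. Cat in batch C against B became 0.0023 without a filter and 0.014 with a minimum count of 10. Without single libraries, Gclm ranged from -0.17 to 0.11 and Cat from -0.12 to 0.008 with batch in the model. In batch B against A, Gclm ranged from -0.15 to 0.074, Txnrd1 from -0.030 to 0.14, Sod3 from -0.0029 to 0.11 and Cat from -0.051 to 0.070. In batch C against B, Nfe2l2 ranged from -0.0039 to 0.13 and Cat from -0.0185 to 0.0234. In the difference of the age differences, Gclc became -0.044 and Cat -0.28 with scaling by total counts, and Cat became -0.035 with RLE normalization, -0.035 with DESeq2 and -0.0033 with a minimum count of 10, and ranged from -0.053 to 0.073 without single libraries. The cause of these changes was not tested.

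No sign was seen that replicate numbers paired the libraries of batch B (correlation of deviations 0.04 over 16132 genes), but 2 libraries per age cannot decide this. With the replicate block 1 of the 10 genes was called, as without it, and 458 genes in all, against 360 without it. Over all genes, 640 were called with DESeq2, 1094 without a filter and 123 with batch B alone. With scaling by total counts, called genes that were higher in the first group named were 150 of 335 in place of 112 of 360 for old against young with batch, 3066 of 3532 in place of 1371 of 2641 without batch, 2004 of 3020 in place of 1393 of 2686 for batch B against A, and 1775 of 6120 in place of 3199 of 5763 for the difference of the age differences.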

Other observations

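Several textbook NRF2 targets of the wider lists, named here after their values were seen, also differed between batches C and B of old MSCs. They are a selection from the lists, and other NRF2 targets were not examined one by one. Of the 86 genes of the lists, 55 were called lower, 12 higher and 19 were not called there. In that comparison 64.7% of all genes were called, 32.6% lower and 32.1% higher. The ferritin heavy chain gene Fth1 was at 956 ± 43.6 CPM in batch C (SD, n = 3) and 2818 ± 58.3 CPM in batch B (SD, n = 2), a log2 fold change of -1.56 (edgeR adjusted p = 7.3e-09). The light chain gene Ftl1 was at 758 ± 27.1 and 1159 ± 105 CPM (-0.62, edgeR adjusted p = 2.01e-05), with 2 annotated pseudogenes that may share its reads. Slc7a11, which encodes the cystine carrier that feeds glutathione synthesis, was at 6.02 ± 0.240 and 21.2 ± 1.67 CPM (-1.82, edgeR adjusted p = 1.14e-07). In the other direction, the aldehyde oxidase gene Aox1 was at 22.3 ± 0.375 and 5.86 ± 1.43 CPM (1.92, edgeR adjusted p = 2.68e-07) and the small MAF gene Mafg at 3.56 ± 0.0857 and 1.81 ± 0.0109 CPM (0.97, edgeR adjusted p = 0.00313). Within batch B none of these 5 genes was called between ages, with log2 fold changes between -0.27 for Aox1 and 0.08 for Ftl1.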
